A study of Homo sapiens with 16 samples.

Results

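The peaks described here are those listed beside the centromere of chromosome 4 in ChIP-seq of γ-tubulin from human MCF10A cells. They were chosen by position, as every peak that overlapped the window from 48.5 to 53.5 Mb of chromosome 4 in hg19, which spans the centromere gap of that build from 49.66 to 52.66 Mb. The window held 388 of the 2933 nuclear peaks of the 4 lists, and these 388 are called members below. The peaks themselves were used to pick this stretch of the genome, so the number of members is a description and was not tested.

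MCF10A cells are a non-tumorigenic line derived from the epithelium of the human breast. The knockdown cells, γTubulinsh-MCF10A, stably expressed an shRNA against γ-tubulin under Zeocin selection, and the level of the protein in these cells was not analysed here. Both kinds of cells were arrested by a double thymidine block, which holds cells at the start of S-phase, and were harvested 1 h or 2 h after release. γ-Tubulin was immunoprecipitated from sonicated nuclei in 2 libraries per condition, 8 whole cell extract (WCE) libraries served as controls, and 1 peak list per condition was deposited, made from both of its ChIP libraries. The sources used here do not say whether the 2 libraries came from separate cultures. With 1 list per condition there is no replicate error, and every difference between conditions below is a difference between lists that was not tested.

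A centromere is the part of a chromosome on which the kinetochore is built, and in humans it consists of long arrays of alpha satellite. The DNA beside it, the pericentromere, is rich in satellite repeats and segmental duplications and is packed as heterochromatin. In hg19 the arrays themselves are left out as a gap. Reads from repeats that are missing from a reference can pile up on the few copies that it holds, so the edges of such gaps often collect many reads in any library, a control included. γ-Tubulin nucleates microtubules at centrosomes and is also found in the nucleus. The nearest protein-coding genes on either side of this centromere, by their order in RefSeq on GRCh38.p14, are CWH43, which acts in the remodelling of the lipid of GPI anchors, and DCUN1D4, which acts in the neddylation of cullins. No annotation and no sequence of hg19 was used here, so repeats, genes and motifs under the members were not analysed.

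The members were very unevenly divided among the conditions. The MCF10A list held 160 members at 1 h and 155 at 2 h. The γTubulinsh-MCF10A list held 62 members at 1 h and 11 at 2 h. The knockdown lists were shorter throughout the nuclear genome, so each number was read against its list. Members made up 15.46% of the nuclear peaks in MCF10A cells and 21.53% in γTubulinsh-MCF10A cells at 1 h, while they were 10.12% and 13.92% at 2 h. The number in the knockdown list was 38.75% of that in the MCF10A list at 1 h and 7.097% at 2 h. For the nuclear peaks outside the window these values were 25.83% and 4.942%, so the ratio of these numbers was higher for members than for the rest of the lists. Of all chromosome 4 peaks, the window held 86.96% and 88.57% in MCF10A and γTubulinsh-MCF10A cells at 1 h, with 90.64% and 100% at 2 h.

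The members lay in 2 dense blocks on the short arm side of the gap. After members no more than 20000 bp apart were joined across the lists, 272 fell in a block from 49093204 to 49158626, called the distal block here, which spans 65423 bp and ends 501492 bp before the gap. A further 111 fell in a block from 49633321 to 49660098, called the gap block, which spans 26778 bp and stops 20 bp short of the gap. The 314.3 kb just before the gap block and the 593.2 kb between the start of the window and the distal block held no peak. The label of a pericentromere is thus met by position: the gap block borders on the gap, whereas the distal block lies in the sequence beyond it.

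The remaining 5 members were listed for MCF10A cells at 2 h alone. Both isolated peaks between the blocks, from 49250813 to 49250951 (fold enrichment 3.742) and from 49318838 to 49319012 (fold enrichment 2.127), belong to them. The other 3 were the sole members on the long arm side. They ran from 52661168 to 52661348, with a summit 1057 bp from the gap, from 52676960 to 52677083 and from 52682951 to 52683070, and their scores were 19, 69 and 22. The score is 10 times the −log10 q-value of the peak caller. At 2 of these 3 summits the recovered ChIP pileup was 12 and 13 reads, the lowest of any member. The peaks next to the window on chromosome 4 were far from both blocks, at 43697683 to 43697833 and at 53686324 to 53686478, and both were listed for MCF10A cells at 1 h. The outermost members, at 49093204 and 52683070, lay 593.2 kb and 816.9 kb inside the window, so its limits cut through no group of peaks.

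**Figure D1:**
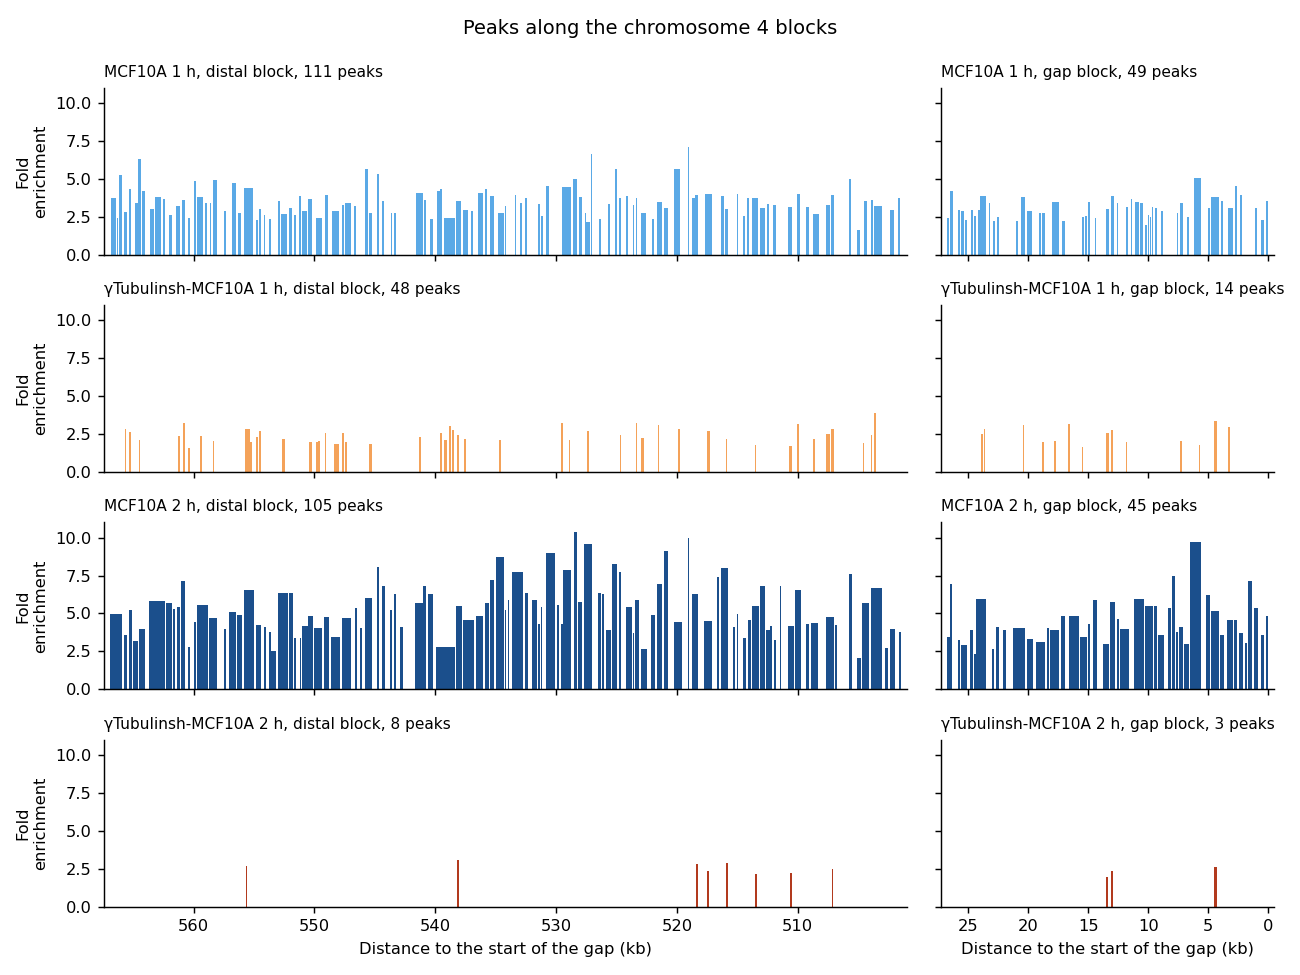
Fold enrichment over the control (vertical axis, ratio) of the members of the distal block (left) and the gap block (right) in the 4 lists, drawn as bars as wide as the peaks, against the distance to the start of the gap in kb (horizontal axis). Peaks of the MCF10A lists are spread over both blocks from end to end, with 111 and 105 in the distal block, while the γTubulinsh-MCF10A lists hold 48 peaks there at 1 h and 8 at 2 h.

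Both blocks were occupied in every condition. In the distal block the lists held 111 peaks in MCF10A and 48 in γTubulinsh-MCF10A cells at 1 h, compared with 105 and 8 at 2 h. In the gap block they held 49 and 14 at 1 h, and 45 and 3 at 2 h. Per 10 kb, the blocks were about equally dense in MCF10A cells, with 16.97 peaks in the distal block and 18.3 in the gap block at 1 h, and 16.05 and 16.8 at 2 h. In γTubulinsh-MCF10A cells the distal block held 7.337 peaks per 10 kb and the gap block 5.228 at 1 h, and 1.223 and 1.12 at 2 h. No full 10 kb bin of the distal block was free of MCF10A peaks: these bins held 15 to 21 peaks at 1 h and 14 to 18 at 2 h. The bins held 4 to 12 peaks of γTubulinsh-MCF10A cells at 1 h and 0 to 4 at 2 h.

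The number of members in MCF10A cells differed little between 1 h and 2 h, but the bases they covered did not. Peaks of MCF10A cells covered 40985 bp at 1 h and 61477 bp at 2 h, while those of γTubulinsh-MCF10A cells covered 10226 bp and 1626 bp. In the distal block this came to 45.62% of its span in MCF10A cells at 1 h and 64.35% at 2 h, against 12.22% and 1.703% in γTubulinsh-MCF10A cells. In the gap block the covered share was 41.61% and 69.61% in MCF10A cells, and 8.343% and 1.912% in γTubulinsh-MCF10A cells. The peaks of all lists together covered 65.53% of the distal block and 71.63% of the gap block, little more than the MCF10A 2 h list covered alone.

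The wider cover at 2 h came with longer peaks. The median length of the members was 201 bp in MCF10A cells at 1 h (110 to 890 bp) and 315 bp at 2 h (120 to 1526 bp). In γTubulinsh-MCF10A cells it was 139.5 bp at 1 h (106 to 415 bp) and 136 bp at 2 h (115 to 246 bp). The nuclear peaks outside the window had medians of 141 bp and 176 bp in MCF10A cells and 138 bp and 142.5 bp in γTubulinsh-MCF10A cells. By median, members of MCF10A cells were therefore longer than the other peaks of their lists at both times, and those of γTubulinsh-MCF10A cells had about the same length as the others. The greater length was not particular to the members. In MCF10A cells the groups on chromosomes 16 and 10, described below, had median lengths of 215 and 231 bp at 1 h, and 407 and 290 bp at 2 h. The longest member of MCF10A cells was at the same place at both times, from 49120848 to 49121737 at 1 h (890 bp, fold enrichment 2.451) and from 49120212 to 49121737 at 2 h (1526 bp, fold enrichment 2.764). The longest member of γTubulinsh-MCF10A cells ran from 49104348 to 49104762 at 1 h and from 49655613 to 49655858 at 2 h.

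Neighbouring summits lay close together in MCF10A cells. The median spacing was 513 bp at 1 h and 564 bp at 2 h. In γTubulinsh-MCF10A cells it was 1149 bp at 1 h and 3152 bp at 2 h, the latter over 10 spacings. Spacing was much alike in both blocks of MCF10A cells, at 519.5 bp in the distal block and 445.5 bp in the gap block at 1 h, and at 565.5 bp and 504.5 bp at 2 h. Because these peaks lay so close, the number of members depended on how peaks were counted. When members of a list within 1000 bp of each other were merged, MCF10A cells had 10 members and γTubulinsh-MCF10A cells 30 at 1 h, the opposite order, and 7 and 9 at 2 h. The order of the lists in number is therefore not that of separate stretches of DNA, whereas the order in bases covered needs no such choice.

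**Figure D2:**
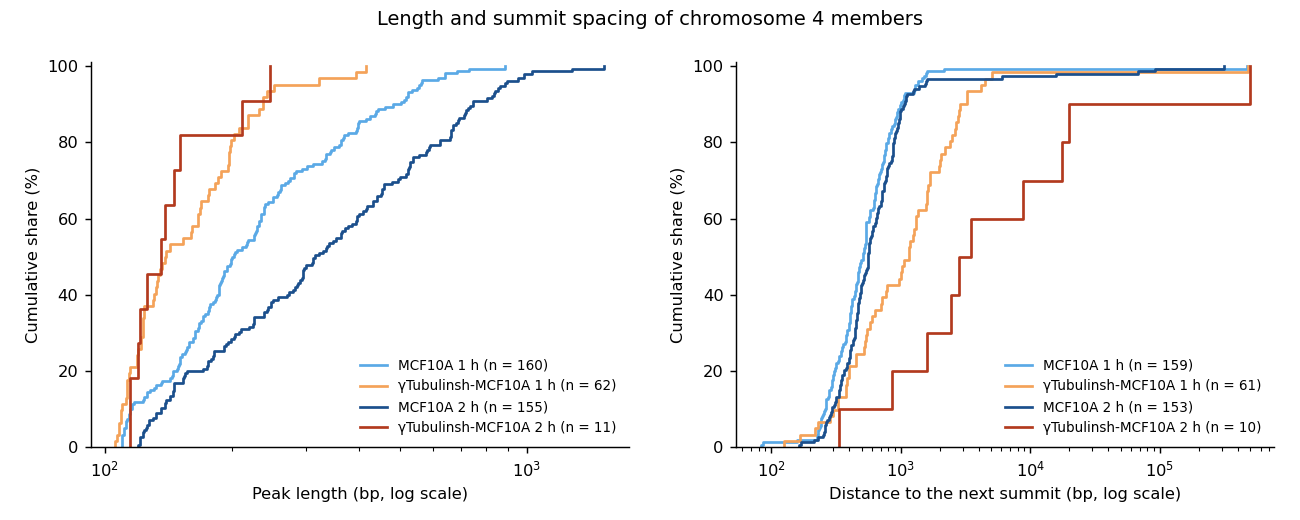
Cumulative share of members in percent (vertical axes) against peak length in bp (left, log scale) and against the distance from a summit to the next summit of the same list in bp (right, log scale), with 1 line per list. The MCF10A 2 h line lies farthest to the right for length, with a median of 315 bp, and the γTubulinsh-MCF10A 2 h line lies farthest to the right for spacing, with a median of 3152 bp.

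The distance to the gap did not separate the conditions. Its median, from the summit to the nearer edge of the gap, was 523096 bp in MCF10A and 528174 bp in γTubulinsh-MCF10A cells at 1 h, against 519059 bp and 513427 bp at 2 h. These values lie in the distal block, which held most members of every list. The member closest to the gap was from 49659971 to 49660098 in MCF10A cells at 1 h, with its summit 94 bp from the gap and a score of 72. At 2 h it was from 49659941 to 49660061, with its summit at 133 bp and a score of 116. In γTubulinsh-MCF10A cells the closest summits were at 3265 bp at 1 h and 4288 bp at 2 h, so the last stretch before the gap held peaks of MCF10A cells alone.

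Members of the knockdown lists lay almost entirely on members of the MCF10A lists. Here 2 peaks count as shared if they have 1 bp or more in common. Of the 62 members of γTubulinsh-MCF10A cells at 1 h, 61 were shared with MCF10A cells at 1 h (98.39%), compared with 73.6% of all nuclear peaks of that list. At 2 h, all 11 were shared with MCF10A cells at 2 h, compared with 65.8% of the nuclear peaks. In the other direction 55 of the 160 members of MCF10A cells at 1 h were shared with γTubulinsh-MCF10A cells (34.38%, against 19.5% of nuclear peaks), and at 2 h 11 of 155 (7.097%, against 3.27%). The MCF10A peaks covered between 41.61% and 69.61% of each block, and these shares are to be read against that cover. Summit positions give a finer measure. The summits of the 61 shared peaks at 1 h lay a median of 9 bp from that of the MCF10A peak, and 42 of them within 20 bp. At 2 h the median was 63 bp, and 5 of 11 summits lay within 20 bp.

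The members of MCF10A cells that were shared with the knockdown were those with the higher scores. At 1 h, the median score was 159 for shared members and 87 for those not shared, and the median length 334 bp and 184 bp. At 2 h, the median score was 235 and 165.5, and the median length 528 bp and 296 bp. The nuclear peaks behaved in the same way, with median scores of 119.5 and 81 at 1 h and of 193.5 and 93 at 2 h. The control background was higher at the shared members too, at 16.14 against 12.1 times the genome background at 1 h and at 7.337 against 5.764 times at 2 h.

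Within MCF10A cells the same places were listed at both times. Of the 160 members at 1 h, 158 were shared with the 2 h list (98.75%, against 72.1% of nuclear peaks), and of the 155 at 2 h, 129 were shared with the 1 h list (83.23%, against 44.2%). Summits moved little, with a median distance of 11 bp and 94 of 158 within 20 bp. The longer peaks at 2 h in part joined peaks that were separate at 1 h: 24 members at 2 h met at least 2 members of the 1 h list, and the most met by any was 4. The members found at 2 h but not at 1 h scored lower than the shared ones, with a median of 87.5 against 187. The nuclear peaks of the 2 h list split in the same way, with medians of 73 and 134. Within γTubulinsh-MCF10A cells, 10 of the 11 members at 2 h were shared with the 1 h list (90.91%, against 51.9% of nuclear peaks), but 10 of the 62 members at 1 h with the 2 h list (16.13%, against 13.2%). Here the knockdown members at 1 h were about as rarely found again as all nuclear peaks of that list.

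When overlapping members of all lists were joined, 156 places resulted, of which 104 were in the distal and 47 in the gap block. The most frequent kind, 77 places, was listed for MCF10A cells at both times and in neither knockdown list. A further 40 places were listed for MCF10A cells at both times and for γTubulinsh-MCF10A cells at 1 h. The MCF10A 2 h list alone accounted for 25 places, and 10 places were listed in all 4 conditions. No place belonged to γTubulinsh-MCF10A cells alone. Of the 25 places of MCF10A cells at 2 h alone, the one with the highest score ran from 49652114 to 49652323 (score 269), in the gap block. MCF10A cells at 1 h alone had 2 places, from 49636833 to 49636944 (score 91) and from 49648652 to 49648761 (score 86), also in the gap block.

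The members with the highest scores differed from list to list. In MCF10A cells at 1 h they ran from 49093969 to 49094195 (score 272, fold enrichment 5.286), from 49101700 to 49102092 (score 270) and from 49140997 to 49141133 (score 269, fold enrichment 7.1, the highest among the members of that list). At 2 h they ran from 49139032 to 49139402 (score 490, fold enrichment 9.111), from 49156145 to 49157096 (score 477) and, in the gap block, from 49653566 to 49654551 (score 432, fold enrichment 9.725). In γTubulinsh-MCF10A cells at 1 h the peak from 49156434 to 49156630 stood out among the members, with a score of 307 and a fold enrichment of 3.874, followed by scores of 144 and 143. It lies within the second of the MCF10A 2 h peaks just named. At 2 h the highest score of γTubulinsh-MCF10A cells, 106, belonged to a peak from 49141664 to 49141874 that had no counterpart in the 1 h list of these cells.

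The median fold enrichment of the members was lower in the knockdown lists. In the authors' files fold enrichment is the ChIP pileup at the summit, the number of reads that cover it, over the control background there, each with 1 added. For γTubulinsh-MCF10A cells at 2 h the pileup enters this ratio multiplied by 0.9434. The pileups of that list given below in reads are without this factor, so they and the background in reads are not on the same scale. The background in reads is given as it enters the ratio. It was a whole number at all 11 members of that list but mostly fractional in the other lists. Backgrounds in reads are therefore not on the same scale across the lists. The median fold enrichment over the members was 3.337 (1.668 to 7.1) in MCF10A and 2.423 (1.619 to 3.874) in γTubulinsh-MCF10A cells at 1 h, and 4.813 (2.098 to 10.34) and 2.46 (1.954 to 3.056) at 2 h. The ranges overlapped at both times. The medians over all nuclear peaks were 3.256 and 2.451 at 1 h and 3.793 and 3.106 at 2 h. Members were thus close to their list at 1 h in both kinds of cells. At 2 h they were above their list in MCF10A cells and below it in γTubulinsh-MCF10A cells, the latter over 11 members.

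The 2 parts of the fold enrichment could be separated, because the p-value of the peak caller depends on the same pileup and background. Both were solved for at each summit. The lowest control background of a list is called its genome background, and other values are given as multiples of it, since the lists differ in reads. The members lay in DNA that was abundant in the WCE control as well. The median of their control background was 13.25 times the genome background in MCF10A and 25.45 times in γTubulinsh-MCF10A cells at 1 h, and 5.764 and 17.48 times at 2 h. Over all nuclear peaks the medians were 10.95 and 22.55 times at 1 h, and 6.289 and 10.25 times at 2 h. By median, the members of MCF10A cells at 2 h thus lay below their list, and those of the other lists above it. It was at least 3 times the genome background for all 160 and all 62 members at 1 h, where 82.6% and 90.6% of the nuclear peaks of these lists reached that level. At 2 h, 141 of 155 members of MCF10A cells (90.97%) and all 11 of γTubulinsh-MCF10A cells did, against 75% and 64.6% of the nuclear peaks. Members with a control background below 3 times, 14 in all, were thus found in the MCF10A 2 h list alone.

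**Figure D3:**
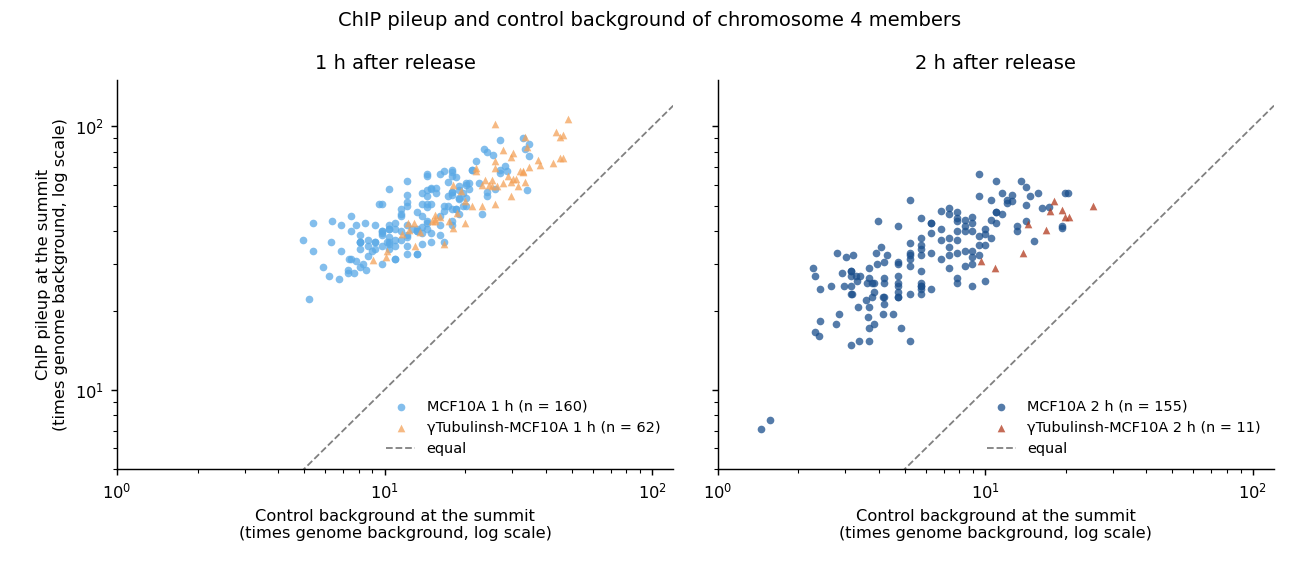
ChIP pileup (vertical axis) against control background (horizontal axis) at the summit of each member, both as multiples of the genome background of the list and on log scales, 1 h after release on the left and 2 h on the right, with a dashed line where both are equal. At 1 h the γTubulinsh-MCF10A points reach as high as the MCF10A points but lie farther to the right, with a median background of 25.45 against 13.25 times. At 2 h the 11 γTubulinsh-MCF10A points have a median background of 17.48 times (9.643 to 25.31), against 5.764 times (1.446 to 20.44) for the MCF10A points.

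The median ChIP pileup of the listed members was higher in the knockdown lists. It was 61 reads in MCF10A and 77.5 reads in γTubulinsh-MCF10A cells at 1 h, compared with 55 and 80 reads at 2 h. A peak has to exceed its background to be listed, so medians over different members cannot be compared directly. At the 50 places listed for both at 1 h, where the highest peak of each list stood for the place, the pileup in reads was higher in γTubulinsh-MCF10A cells at 24 and lower at 24, with a median ratio of 1. As a multiple of the genome background the pileup was higher in γTubulinsh-MCF10A cells at 37 and lower at 13, with a median ratio of 1.09. The control background at these places was 14.41 times the genome background in MCF10A and 25.77 times in γTubulinsh-MCF10A cells, and it was higher in the latter at 46 of 50. The fold enrichment was lower in γTubulinsh-MCF10A cells at 48 of 50, with a median ratio of 0.6844.

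At 2 h the same comparison could be made at 11 places. The pileup had medians of 74 reads in MCF10A and 80 reads in γTubulinsh-MCF10A cells, and as a multiple of the genome background it was higher in the latter at 5 and lower at 6 places. The control background was 7.337 times and 17.48 times the genome background, and higher in γTubulinsh-MCF10A cells at 11 of 11, by 1.651 to 3.066 times. The fold enrichment was lower in γTubulinsh-MCF10A cells at each of them, with a median ratio of 0.5007. These places are the ones where the knockdown pileup was high enough over its background to be listed, so places with a low pileup in the knockdown are not among them. A place without a peak in a list has no pileup and no background there, and the part of either in the smaller number of members was not tested. At the shared places outside the window the background ratio was 1.289 at 1 h (137 places) and 1.339 at 2 h (38 places), against 1.604 and 2.172 for the members, so it differed in the same direction and by less. The fold enrichment there was lower in γTubulinsh-MCF10A cells at 114 of 137 places at 1 h and at 30 of 38 at 2 h. Its median ratios were 0.8402 and 0.7152, so a lower fold enrichment was not particular to the members.

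In MCF10A cells, 128 places were listed at both times. Their pileup had medians of 64 and 57 reads and was lower at 2 h at 105 of them, and as a multiple of the genome background it was lower at 125, with a median ratio of 0.7459. The control background went from 13.54 to 6.289 times the genome background and was lower at 2 h at 126 of 128. The fold enrichment was higher at 2 h at 115 of 128 places, with medians of 3.401 and 4.851. The median ratio of the control background, 0.4988, was below that of the pileup. In γTubulinsh-MCF10A cells, 10 places were listed at both times. The control background there was 26.74 times at 1 h and 17.18 times at 2 h, lower at 9 of 10. In reads it was lower at 6 and higher at 4, but this count depends on the unlike scales of the 2 lists. The pileup as a multiple of the genome background was lower at 10 of 10, with medians of 61.17 and 44.06, and in reads it was lower at 7 of 10, with medians of 78.5 and 77.5. The fold enrichment was higher at 4 and lower at 6 of these places.

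The 10 places listed in every condition show the values side by side. They comprise 7 places in the distal and 3 in the gap block, and the summits of the 4 lists lay within 20 bp of each other at 3 of them. The place with the highest lowest score runs from 49104269 to 49105122, with summits within 11 bp. Its pileup was 92 reads in MCF10A and 95 in γTubulinsh-MCF10A cells at 1 h, against 81 and 84 at 2 h. Its control background was 20.16 and 33.08 reads at 1 h, and 11.54 and 29 reads at 2 h. The fold enrichment was 4.396 and 2.817 at 1 h, and 6.538 and 2.675 at 2 h. In reads the pileup thus lay between 81 and 95 in the lists. As a multiple of the genome background it was 65.76 and 74.03 at 1 h, and 47.81 and 47.76 at 2 h, so on this scale it was lower at 2 h in both kinds of cells.

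At the place from 49146337 to 49146885, with summits within 7 bp, the pileup was 96 reads in MCF10A and 79 in γTubulinsh-MCF10A cells at 1 h, compared with 92 and 80 at 2 h. Its control background was 24.99 and 43 reads at 1 h, and 15.98 and 34 reads at 2 h. The pileup was lower in the knockdown here, and the score was 212 in MCF10A and 21 in γTubulinsh-MCF10A cells at 1 h, with 327 and 43 at 2 h. In the gap block, the place from 49646334 to 49646871, with summits within 13 bp, had a fold enrichment of 3.043 in MCF10A and 2.584 in γTubulinsh-MCF10A cells at 1 h, compared with 3.004 and 1.954 at 2 h. Its control background, on the scale of each list, was 26.61 and 38.86 reads at 1 h, and 23.97 and 42 reads at 2 h. As a multiple of the genome background it was 19.02 and 30.28 at 1 h, and 14.15 and 25.31 at 2 h.

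Over all 10 places, the pileup ranged from 55 to 96 reads (median 77) in MCF10A and from 55 to 104 reads (median 78.5) in γTubulinsh-MCF10A cells at 1 h. At 2 h it ranged from 40 to 92 reads (median 72.5) and from 51 to 88 reads (median 77.5). As a multiple of the genome background the pileup ranged from 39.31 to 68.61 and from 42.86 to 81.04 at 1 h, and from 23.61 to 54.3 and from 29 to 50.04 at 2 h. The ranges of the 2 kinds of cells overlapped at each time on both scales, and those at 2 h reached less high. The control background had medians of 19.8 and 34.32 reads at 1 h, and of 12.87 and 28.5 reads at 2 h. The fold enrichment ranged from 3.043 to 4.396 and from 1.691 to 3.351 at 1 h, with some overlap, and from 3.004 to 8.009 and from 1.954 to 3.056 at 2 h, where the ranges met only at their ends.

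**Figure D4:**
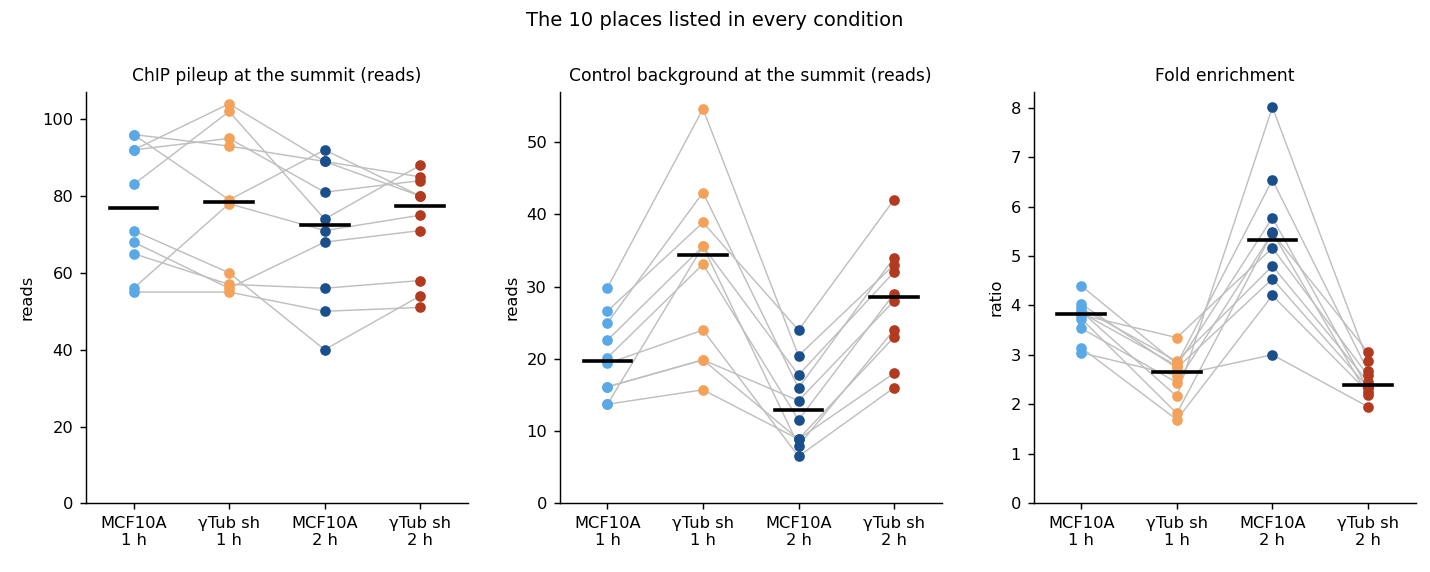
ChIP pileup in reads (left), control background in reads (middle) and fold enrichment as a ratio (right) at the 10 places listed in every condition, with 1 point per place and list, grey lines that join the points of a place, and black bars at the medians. In reads, the medians of the pileup lie between 72.5 and 78.5 in the 4 lists, while the control background is lowest and the fold enrichment highest in MCF10A cells at 2 h. For γTubulinsh-MCF10A cells at 2 h the pileup is drawn without the factor of 0.9434 with which it enters the fold enrichment. The control background is drawn as it enters the fold enrichment and is not on the same scale in all lists.

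The 2 blocks differed in their background and fold enrichment. In MCF10A cells the median background was 12.1 times the genome background in the distal and 14.98 times in the gap block at 1 h, and 5.764 and 7.337 times at 2 h, with fold enrichments of 3.428 and 3.043 at 1 h and 5.228 and 4.108 at 2 h. At 1 h the background of γTubulinsh-MCF10A cells was 25.45 and 26.42 times and the fold enrichment 2.408 and 2.559. At 2 h, over 8 and 3 peaks, their background was 17.78 and 13.86 times and the fold enrichment 2.568 and 2.322. Peaks of MCF10A cells in the gap block thus had the higher background and the lower fold enrichment, at both times.

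The members were set beside the 2 groups of peaks with the highest numbers on other chromosomes, each joined over distances of no more than 100000 bp. They lie on chromosome 16 from 46385848 to 46500374 and on chromosome 10 from 42354949 to 42408349, also close to a centromere. The members come from a window with 2 blocks and so were defined in another way. Over the 4 lists the groups held 175 and 151 peaks, more than the 111 of the gap block. The group on chromosome 16 held 70 peaks in MCF10A and 41 in γTubulinsh-MCF10A cells at 1 h, against 59 and 5 at 2 h. That on chromosome 10 held 63 and 20 at 1 h, and 67 and 1 at 2 h. The number in the knockdown list as a share of that in the MCF10A list was thus 58.57% and 31.75% at 1 h, on either side of the 38.75% of the members, and 8.475% and 1.493% at 2 h, on either side of 7.097%. The control background was far higher on chromosome 16, where its medians in MCF10A and γTubulinsh-MCF10A cells were 72.53 and 91.73 times the genome background at 1 h. In all 3 groups the median background over the listed peaks was higher in γTubulinsh-MCF10A than in MCF10A cells and lower at 2 h than at 1 h, but these medians are over different peaks in each list, and that of γTubulinsh-MCF10A cells at 2 h on chromosome 10 rests on 1 peak. The median fold enrichment of MCF10A cells at 2 h was 2.469 on chromosome 16 and 3.288 on chromosome 10, against 4.813 for the members. The median of the members was the highest of the 3 groups in every list except that of γTubulinsh-MCF10A cells at 2 h, where the 1 peak on chromosome 10 had a fold enrichment of 2.517 and the members a median of 2.46. The knockdown lists held fewer peaks than the MCF10A lists in all 3 groups.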

How the data were processed

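The authors sequenced ChIP and WCE libraries on the Ion Proton, kept uniquely mapped reads (Bowtie 1.0.0), and ran MACS2 2.1.1 on the pooled ChIP libraries of a condition. The submitters' processing notes also name bedtools 2.17.0 and hg19. Differential calling by MACS2 is given in the methods, whereas the columns are those of calls against a control, and they were read that way. In 100% of nuclear peaks the deposited score equalled the −log10 q-value multiplied by 10 and rounded down. The deposited fold enrichment is a ratio of ChIP pileup to control background at the summit. The authors' files also give −log10 values of p and q. Positions were counted from 1. The depth of the libraries is not given in the lists, and reads of single libraries were not analysed here.

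Pileup and background were recovered by solving the MACS2 equations for fold enrichment and Poisson p-value together. The methods give settings for the differential tool alone, with a minimum length above that of the shortest listed peaks (106 bp), and the settings of the calls against the control are not given in the sources used here. The background of MACS2 is by default the largest of several local and genome values. Pileups were whole reads (tolerance 0.02 reads) for 100% of the peaks, once those of γTubulinsh-MCF10A cells at 2 h had been divided by 0.9434. For 6 of the 388 members a second whole pileup was possible. The procedure was tested on simulated peaks.

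Members, groups and lists of places were chosen with earlier results of these data known. Named were the 3 members with the highest score in each list, the longest, those nearest to the gap, up to 10 places found in all 4 lists and the highest places of 1 list alone. The peaks outside the blocks, those on the long arm side the peaks next to the window and the groups on chromosomes 16 and 10 were named after their values were seen. No member lay over 100000 bp from every other member. Computations used matplotlib 3.10.9, scipy 1.17.1, pandas 2.3.3 and numpy 2.4.6 in Python 3.11.15.

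Alternatives were other score, length and background limits, merging within 1000 bp, a window wider by 1 Mb on each side, the short arm side alone, overlap of at least 50%, summits within 100 bp, and other measures of spacing and distance. Motif counts and sequences at summits, which need a genome of the same build, were not run.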

Additional observations from a re-analysis of the deposited data

Results flagged for a closer look

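Between 1 h and 2 h after release, 3 measures of the members moved in opposite directions in the 2 kinds of cells, and the differences were not tested, since each condition has 1 list. In MCF10A cells, the bases under members rose by 20492 bp, the median length by 114 bp and the median score by 60.5. In γTubulinsh-MCF10A cells, the bases under members fell by 8600 bp, the median length fell by 3.5 bp and the median score fell by 11. The medians of γTubulinsh-MCF10A cells at 2 h rest on 11 peaks. The bases under nuclear peaks outside the window moved in the same directions, from 160009 to 316932 bp in MCF10A and from 39367 to 13631 bp in γTubulinsh-MCF10A cells. Their median length rose in both, from 141 to 176 bp and from 138 to 142.5 bp. Their median score also rose in both, from 82 to 87.5 and from 55.5 to 70.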

How the results depend on the processing

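No paired analysis was possible because the 2 ChIP libraries of a condition share 1 list, and no replicate could be left out for the same reason. Sets of 4 values give the 1 h lists before the 2 h lists, and MCF10A before γTubulinsh-MCF10A cells at each time. Instead of 160, 62, 155 and 11 members, there were 49, 4, 96 and 0 with scores of at least 132 (the 75th percentile of the pooled lists), 24, 1, 61 and 0 with a length of at least 400 bp, and 0, 0, 14 and 0 with a control background under 3 times the genome background. Scores of at least 85 (the pooled median) left 15 and 2 in the γTubulinsh-MCF10A lists, against 109 and 135 in the MCF10A lists. These settings remove peaks by construction. MCF10A cells had more members under each of them at 2 h, and at 1 h under all but the background limit, which left none in either list. Merging within 1000 bp gave 10, 30, 7 and 9, since the close peaks of MCF10A cells join, and the order was then reversed at both times. A wider window and the short arm side alone changed no number by over 1.5 times.

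With summits within 100 bp in place of overlap, the shared part of γTubulinsh-MCF10A members at 1 h in MCF10A cells was 74.19%, and that of MCF10A members at 1 h in the 2 h list 76.88%. With scores of at least 85 in both lists it was 100% for γTubulinsh-MCF10A in MCF10A cells and 12.84% for the converse at 1 h, 1.481% for MCF10A in γTubulinsh-MCF10A cells at 2 h, 68.15% for MCF10A members at 2 h in the 1 h list, 50% for γTubulinsh-MCF10A members at 2 h in the 1 h list (of 2 members) and 6.667% for the converse. With a control background under 3 times, MCF10A members at 2 h were shared at 0% with γTubulinsh-MCF10A cells and at 50% with the 1 h list; the γTubulinsh-MCF10A lists and the MCF10A 1 h list have no such member and gave no value. An overlap of at least 50% moved no share beyond its 95% binomial interval (Wilson, counting error only).

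In the same order of lists, median lengths were 226, 182, 347 and 168.5 bp with scores of at least 85. Median spacings were 512, 1101, 563 and 2819 bp over neighbours less than 100000 bp apart. Median distances to the gap were 522933, 528048.5, 518973 and 513407 bp from the edge of the peak. As a setting chosen after seeing the data, ratios at shared places were taken over members with summits within 20 bp. The pileup ratio of γTubulinsh-MCF10A over MCF10A cells at 2 h, in multiples of the genome background, went from 0.999 (11 places) to 1.018 (5 pairs), on the other side of 1, and the other 11 ratios kept their direction.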
